A study of Homo sapiens with 121 samples.

Results

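A set of 9 genes of the p53 pathway and of the mitochondrial route to apoptosis was examined in 121 single human embryonic stem cells (hESCs). They were taken by name: MDM2, MDM4, CDKN1A, BBC3, PMAIP1, BAX, BCL2, BCL2L1 and MCL1. All 9 of 9 were present among the 25610 genes read from the deposited table. The question the comparison addresses is whether cells with short telomeres express p53 targets.

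All cells were of the established hESC line WA26, with no engineered allele or treatment named in the labels, grown without feeder cells in E8 medium on Matrigel and passaged with an additive that the labels call Rocki. In scT&R-seq, the polyadenylated mRNA of a lysed cell is converted to full-length cDNA by a Smart-seq2 protocol, and telomere repeats (T) are measured against Alu repeats (R) by qPCR in the genomic DNA of the same cell. The labels placed 81 cells in the long, 25 in the medium and 15 in the short telomere group, which the methods separate at T/R ratios of 1 and 0.4. Cells are not replicates, and no separate cultures or batches are named for them, so each group counts as 1 sample: values are given as mean ± SD across cells, and no p-value was computed.

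p53 is a transcription factor that is stabilised when DNA is damaged or when telomeres no longer protect chromosome ends. In unstressed cells, MDM2 marks p53 for degradation and MDM4 holds down its activity, and MDM2 is itself a p53 target, which closes a feedback loop. Active p53 switches on CDKN1A (p21), which stops the cell cycle, and BBC3 (PUMA), PMAIP1 (NOXA) and BAX, which promote apoptosis, whereas BCL2, BCL2L1 (BCL-XL) and MCL1 keep the mitochondrial outer membrane closed. hESCs are known for a short G1 phase and for readily entering apoptosis after DNA damage.

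Sequences that match the p53 consensus site stand before a start of MDM2 and of PMAIP1, which are known direct targets of p53, and they are shown for that reason. Of the 9 members, 8 had an entry in the RefSeq promoter table (GRCh38.p14), with 12 windows that each run from 250 bases before to 50 bases after a start, and all 12 windows matched GRCh37 exactly once. The p53 consensus site was searched as 20 bases made of 2 adjacent parts of 10 bases, with the C and G of both cores kept and at most 3 other mismatches. The consensus reads the same on both strands. This limit was set with the MDM2 site known. Such a site was found in 1.12% of all 35116 windows. Among the members it was found in 3 windows, 2 of them overlapping windows at the downstream start of MDM2 and 1 at PMAIP1. In both stretches below, which run from 200 to 51 bases before the start, the site is in capitals.
MDM2 (GRCh37, chr12:69202597-69202746, plus strand, inside the gene and outside annotated exons): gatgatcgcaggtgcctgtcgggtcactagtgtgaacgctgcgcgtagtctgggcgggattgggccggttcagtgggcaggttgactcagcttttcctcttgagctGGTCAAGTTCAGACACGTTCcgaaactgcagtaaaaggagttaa
PMAIP1 (GRCh37, chr18:57567028-57567177, plus strand, before the gene): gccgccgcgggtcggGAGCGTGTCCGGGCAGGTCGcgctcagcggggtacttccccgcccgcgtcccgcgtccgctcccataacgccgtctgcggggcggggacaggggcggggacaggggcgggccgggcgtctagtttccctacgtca
The MDM2 site had 2 mismatches to the consensus and the PMAIP1 site had 3. The known p53 sites of CDKN1A lie farther upstream than its window. A match describes the letters and shows no binding in these cells, and a table of values per gene does not separate transcripts by their start.

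The deposited values are named TPM, which are scaled by gene length. The methods also describe counts scaled by library size alone, so this was checked. Each cell summed to between 979828 and 997050, and over 3515 genes above 0 in 5 to 30 cells, the lowest value above 0 fell with the annotated exon length (Spearman's rho across genes -0.48), from a median of 0.42 in the shortest 25% of these genes to 0.11 in the longest 25%. The order of levels between genes rests on this length scaling. TPM values do not tell how many reads a cell had, so no counting error can be attached to a value, and a gene listed at 0 may be a failed measurement: 602 genes were above TPM 0 in every cell. A gene was called detected above TPM 1. The long group had 8296 ± 2152 detected genes per cell, the medium group 7980 ± 2070 and the short group 5784 ± 2355. Because of this difference, each comparison was repeated on either side of 8000 detected genes, in 68 cells above it, called gene-rich here (51 long, 14 medium, 3 short), and in 53 cells at or below it, called gene-poor (30 long, 11 medium, 12 short). Of 8 hESC markers, POU5F1 and LIN28A were detected in all 121 cells. The others (NANOG, SOX2, DNMT3B, ZFP42, TDGF1 and PODXL) were each detected in 11 to 13 of 15 short telomere cells. The 16 markers of differentiated cells had median sums of 6.71, 4.19 and 7.75 TPM in the long, medium and short group. GATA6, HAND1 and LUM were at 0 in every cell.

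The members spanned a wide range of levels. By mean TPM over 121 cells the order was PMAIP1 (284 ± 184), BAX (53.0 ± 92.3), MCL1 (39.5 ± 32.2), MDM4 (30.8 ± 162), MDM2 (10.1 ± 18.1), BCL2L1 (7.56 ± 11.0), BBC3 (0.706 ± 2.64), BCL2 (0.410 ± 1.29) and CDKN1A (0.0513 ± 0.330). PMAIP1 was the 576th highest of 25610 genes and CDKN1A was in place 19024. PMAIP1 exceeded BAX in 111 of 121 cells. The places of BAX and MCL1 were not separated, since BAX was higher in 48 cells and MCL1 in 68. MCL1 exceeded MDM4 in 87 cells, MDM4 exceeded MDM2 in 81, and MDM2 exceeded BCL2L1 in 79. BBC3 was above BCL2 in 19 cells and below it in 19. A single short telomere cell carried much of the mean of MDM4, whose median was 12.8 TPM. A cell had a median of 5 detected members, with a range from 0 to 8.

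**Figure D1:**
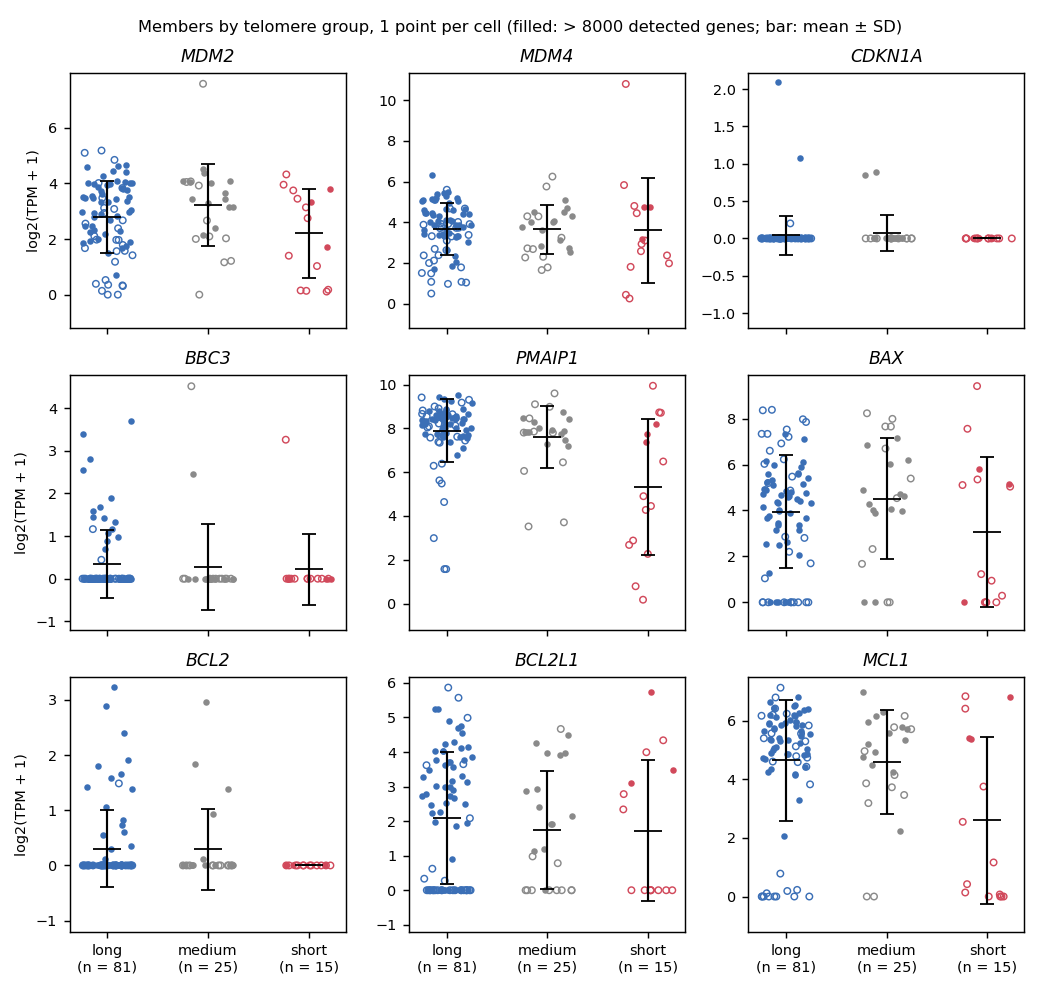
Expression of the 9 members as log2(TPM + 1) (y axis) in long, medium and short telomere cells (x axis), 1 point per cell; filled points are gene-rich cells (over 8000 detected genes), open points gene-poor cells, and the black bar gives mean ± SD across cells. PMAIP1 and MCL1 extend to low values in the short group, and CDKN1A and BCL2 lie at 0 in all 15 short telomere cells.

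Of the targets that p53 uses to stop the cell cycle and to start apoptosis, CDKN1A and BBC3 were low, whereas PMAIP1 and BAX had the highest mean TPM of the members. CDKN1A was listed at 0 in 116 of 121 cells. It was detected in 2 of 81 long telomere cells, which is 2.47% (exact 95% binomial interval 0.30 to 8.64%), at 3.28 and 1.12 TPM. None of the 25 medium telomere cells passed TPM 1, where the highest value was 0.86. All 15 short telomere cells were listed at 0, which allows a share of up to 20% of such cells above TPM 1. These intervals and limits cover counting error of cells only. Thus CDKN1A mRNA was not detectable in the short telomere cells at the depth of these libraries, and the 2 cells above TPM 1 were in the long group and had 9735 and 9372 detected genes.

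BBC3, a BH3-only protein that neutralises the survival proteins, was detected in 13 of 81 long telomere cells (16.0%, interval 8.83 to 25.9%), 2 of 25 medium (8.00%, 0.984 to 26.0%) and 1 of 15 short (6.67%, 0.169 to 31.9%). These intervals overlap. The highest values were 12.0 TPM in the long, 21.9 TPM in the medium and 8.59 TPM in the short group, and the median was 0 in each. The short telomere cell with BBC3 also had 88.8 TPM of PMAIP1, 39.8 TPM of BAX and 12.5 TPM of MCL1, and with 7 detected members it had more of them than any other short telomere cell.

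PMAIP1, another BH3-only protein, which binds MCL1, was detected in every long and medium telomere cell and in 13 of 15 short telomere cells. Its lowest, median and highest values were 1.98, 294 and 734 TPM in long, 10.5, 230 and 774 TPM in medium and 0.13, 28.9 and 986 TPM in short telomere cells. The short group held both the lowest and the highest value of all 121 cells, so the groups overlapped over the whole range of the long group. On the log2(TPM + 1) scale the means were 7.90 ± 1.45, 7.61 ± 1.42 and 5.31 ± 3.11. Long telomere cells exceeded short telomere cells by 2.60, or 6.05-fold on this scale, and 74.5% of long-short pairs had the higher value in the long telomere cell. The difference is below the SD of the short group. Above 100 TPM were 73 of 81 long, 21 of 25 medium and 6 of 15 short telomere cells.

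The PMAIP1 difference of means was larger among cells with few detected genes. It was 2.55 in gene-poor cells, where the medians were 260 TPM in 30 long and 19.7 TPM in 12 short telomere cells. In gene-rich cells it was 0.53, and the 3 short telomere cells there had 163, 211 and 292 TPM, within the range of 108 to 734 TPM of the 51 long telomere cells. Without the 4 short telomere cells that had under 4000 detected genes, the long-short difference was 1.95. The 2 short telomere cells without detected PMAIP1 were among these, with 3187 and 2030 detected genes and 0 detected members. The part of the number of detected genes in the PMAIP1 difference was not tested.

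BAX, which forms the pore in the outer membrane, was listed at 0 in 24 cells and reached 681 TPM in a short telomere cell. It was detected in 66 of 81 long (81.5%, interval 71.3 to 89.2%), 21 of 25 medium (84.0%, 63.9 to 95.5%) and 8 of 15 short telomere cells (53.3%, 26.6 to 78.7%). The lowest value was 0 in each group, the medians were 20.4, 24.1 and 1.34 TPM, and the highest values were 333, 299 and 681 TPM. Thus the short group had the lowest median and the highest single value. On the log2(TPM + 1) scale the means were 3.95 ± 2.45, 4.52 ± 2.62 and 3.06 ± 3.25, and the long-short difference of 0.89 was smaller than each SD. It passed 1 when any of 7 short telomere cells was left out, with 1.34 at most, and it was -0.09 without the 4 short telomere cells that had under 4000 detected genes.

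The inhibitors of p53 were present in most cells. MDM4 was detected in 79 of 81 long, 25 of 25 medium and 13 of 15 short telomere cells. Its lowest, median and highest values were 0.41, 13.5 and 78.6 TPM in long, 2.14, 12.8 and 75.0 TPM in medium and 0.19, 7.59 and 1786 TPM in short telomere cells. The value of 1786 TPM belonged to short telomere cell 6. The means of log2(TPM + 1) were 3.66 ± 1.27, 3.65 ± 1.18 and 3.60 ± 2.57, and the long-short difference of 0.06 became 0.57 without that cell. It was -0.62 after median-ratio scaling, in which a cell is rescaled by the 602 genes that no cell lists at 0, so no direction can be given for MDM4.

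MDM2, the ubiquitin ligase, was detected in 72 of 81 long (88.9%, interval 80.0 to 94.8%), 24 of 25 medium and 11 of 15 short telomere cells (73.3%, 44.9 to 92.2%). Its lowest, median and highest values were 0, 6.66 and 35.4 TPM in long, 0, 9.91 and 191 TPM in medium and 0.08, 5.73 and 19.0 TPM in short telomere cells. The ranges of the 3 groups overlapped. The means of log2(TPM + 1) were 2.79 ± 1.30, 3.23 ± 1.47 and 2.21 ± 1.60. The long-short difference of 0.57 turned to -0.06 after the median-ratio scaling and to -0.10 without the cells under 4000 detected genes. The medium-short difference of 1.01 fell under 1 when any of 18 cells was left out, to 0.83 at the lowest, without medium telomere cell 7, which had the 191 TPM. MDM4 exceeded MDM2 in 56 of 81 long, 13 of 25 medium and 12 of 15 short telomere cells.

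Among the survival genes, MCL1 was the most abundant, and it was the highest of MCL1, BCL2L1 and BCL2 in 67 of 81 long, 22 of 25 medium and 5 of 15 short telomere cells. In 5 further short telomere cells BCL2L1 was the highest, and in the remaining 5 none of the 3 was detected. In gene-rich cells MCL1 was the highest in 66 of 68.

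MCL1, a short-lived protein that keeps BAK1 in check and that PMAIP1 binds, was detected in 69 of 81 long (85.2%, interval 75.6 to 92.1%), 23 of 25 medium (92.0%, 74.0 to 99.0%) and 8 of 15 short telomere cells (53.3%, 26.6 to 78.7%). The lowest value was 0 in each group, the medians were 39.4, 30.1 and 1.24 TPM, and the highest values were 139, 126 and 113 TPM. The means of log2(TPM + 1) were 4.65 ± 2.07, 4.59 ± 1.77 and 2.60 ± 2.85. The long-short difference was 2.05, or 4.14-fold, below the SD of either group, and 66.9% of long-short pairs were higher in the long telomere cell. Without the 4 short telomere cells that had under 4000 detected genes the difference was 1.23, and in gene-poor cells it was 1.56. In gene-rich cells it had the other sign, -0.45, and the 3 short telomere cells had 40.8, 41.3 and 112 TPM beside a median of 46.0 TPM in 51 long telomere cells.

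BCL2L1 was detected in 47 of 81 long (58.0%), 14 of 25 medium (56.0%) and 7 of 15 short telomere cells (46.7%). Its medians were 4.57, 1.29 and 0 TPM and its highest values 57.3, 24.4 and 51.9 TPM. The long-short difference of log2(TPM + 1) was 0.37 over all cells, -0.22 in gene-poor and -1.32 in gene-rich cells, so both sets went against the pooled sign. It was -0.05 after the median-ratio scaling and -0.04 without the cells under 4000 detected genes. In gene-rich cells the 3 short telomere cells had 7.63, 10.2 and 51.9 TPM and the long telomere cells a median of 7.08 TPM. BCL2 was detected in 11 of 81 long (13.6%, interval 6.98 to 23.0%), 3 of 25 medium (12.0%, 2.55 to 31.2%) and 0 of 15 short telomere cells, which again allows a share of up to 20%. Its highest value in any cell was 8.39 TPM. Of its 14 cells, 13 had more than 8000 detected genes.

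Set against all genes, the members as a whole did not stand apart between long and short telomere cells. The comparison was made over the 13439 genes whose mean TPM was 1 or more, which 6 of the 9 members passed (not CDKN1A, BBC3 and BCL2), and a difference of at least 1 in mean log2(TPM + 1) was counted. At least 1 lower in short telomere cells were 2 of 9 members, PMAIP1 and MCL1, beside 38.9% of all genes tested. Both are among the 6 that passed. CDKN1A, BBC3 and BCL2 had means of log2(TPM + 1) of 0.04, 0.35 and 0.30 in long telomere cells. These genes therefore could not be 1 lower in the short group. No member was at least 1 higher, beside 3.75% of all genes. The median long-short difference was 0.37 over the 9 members, 0.73 over the 6 that passed and 0.70 over all genes tested, so lower values in the short group were common to many genes. PMAIP1 was at percentile 96.3 and MCL1 at percentile 89.3 of the differences of all genes. The other members that passed lay between percentiles 22.6 and 57.3, and CDKN1A, BBC3 and BCL2 between 22.0 and 31.9. After the median-ratio scaling, the median of all genes was 0.47, a shift of -0.23, and 3907 genes were at least 1 lower and 1265 at least 1 higher, against 5225 and 504 as deposited. PMAIP1 (1.90) and MCL1 (1.82) were still at least 1 lower.

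In gene-rich cells, 0 of 9 members were at least 1 lower in the short group, beside 11.4% of genes, and 1 member, BCL2L1, was at least 1 higher, beside 9.37%. These values rest on 3 short telomere cells. In gene-poor cells, the members at least 1 lower were again PMAIP1 and MCL1, beside 26.4% of genes, and none was at least 1 higher, beside 7.37%.

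Long and medium telomere cells differed less than medium and short telomere cells, with median differences over all genes tested of 0.10 and 0.60. Between long and medium telomere cells no member differed by 1 or more, beside 0.893% of genes that were at least 1 lower and 0.387% that were at least 1 higher in medium telomere cells. The member differences ran from -0.57 for BAX to 0.35 for BCL2L1. BAX and MDM2 (-0.44) were at percentiles 3.0 and 5.7 of the differences of all genes, and the other members between 33.3 and 76.9. Both differences were below the SD of either group. They were -0.30 and -0.37 in gene-rich cells and -0.94 and -0.72 in gene-poor cells. Between medium and short telomere cells, 4 of 9 members were at least 1 lower in the short group, beside 33.8% of genes: PMAIP1 (2.30), MCL1 (1.99), BAX (1.46) and MDM2 (1.01, under 1 without any of 18 cells, as given above). All 4 are among the 6 members that passed a mean TPM of 1. None was at least 1 higher, beside 4.11%. The median medium-short difference was 0.29 over the 9 members, 1.23 over the 6 that passed and 0.60 over all genes tested. In gene-poor cells the median over the 6 was 1.30, beside 0.31 over all genes. In gene-rich cells, with 3 short telomere cells, it was -0.11, beside 0.005. The comparisons share the same cells of each group and are not independent of each other.

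**Figure D2:**
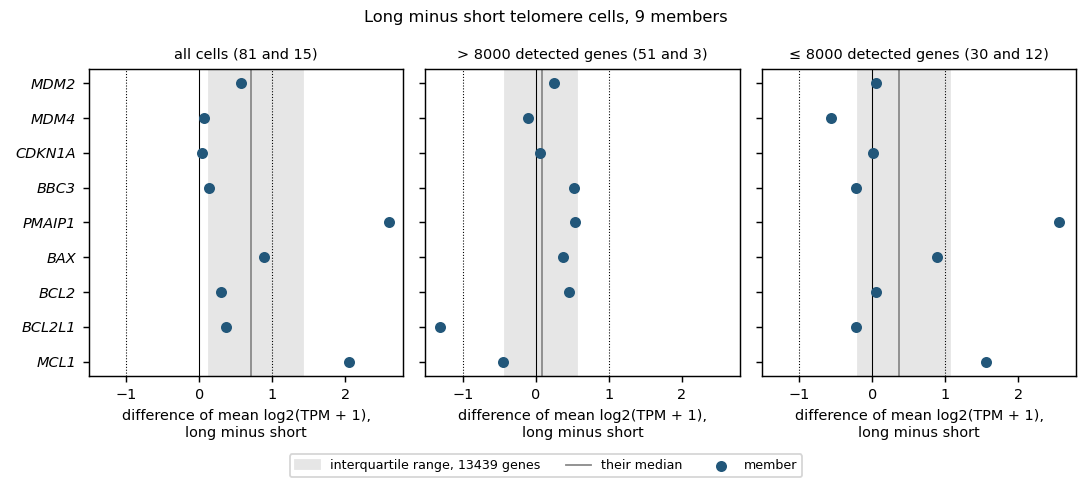
Difference of mean log2(TPM + 1), long minus short telomere cells (x axis), for each member (y axis), in all cells and on either side of 8000 detected genes; the grey band and line give the interquartile range and median of 13439 genes, and dotted lines mark 1 and -1. PMAIP1 and MCL1 lie right of the band in all cells and in gene-poor cells, but not in gene-rich cells.

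Expression of the members was only weakly related to the T/R ratio as a continuous measure. Over 121 cells, Pearson's r of TPM with the T/R ratio ran from -0.13 for MDM4 to 0.10 for PMAIP1. No member reached 0.2 or -0.2, beside 8.24% and 2.82% of the 13439 genes. Spearman's rho was 0.15 for PMAIP1, 0.12 for BBC3 and 0.09 for MCL1, and between -0.04 and 0.09 for the other 6. With the 2 cells of most extreme T/R ratio left out, r was 0.17 for PMAIP1 and -0.02 for BCL2L1, which had been 0.09. Without short telomere cell 6, r of MDM4 was -0.06. On the log2(TPM + 1) scale, r over 121 cells ran from -0.09 for MDM4 to 0.18 for PMAIP1. The cells share the qPCR of each cell's own DNA and a wide spread of detected genes, and partial correlations that hold the detected genes fixed ran from -0.13 to 0.09.

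Within the groups and within the sets of cells, the relation did not hold one direction. For PMAIP1, r was -0.19 in the long, 0.18 in the medium and 0.26 in the short group. For MCL1 it was -0.20, -0.02 and 0.24, and for MDM2 -0.05, 0.24 and 0.43. In the short group r was positive for each member not at 0 throughout, from 0.08 for BAX to 0.43 for MDM2. The short telomere cells of lowest T/R ratio, at 0.040, 0.066 and 0.078, had only 2030, 3481 and 2577 detected genes. The part of this in the values of the short group was not tested. For BCL2L1, r was -0.20 in gene-rich cells and 0.27 in the other cells. For PMAIP1 the corresponding values were 0.18 and 0.06. For BBC3, detected in 13 of 68 gene-rich cells, they were 0.23 and -0.10.

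**Figure D3:**
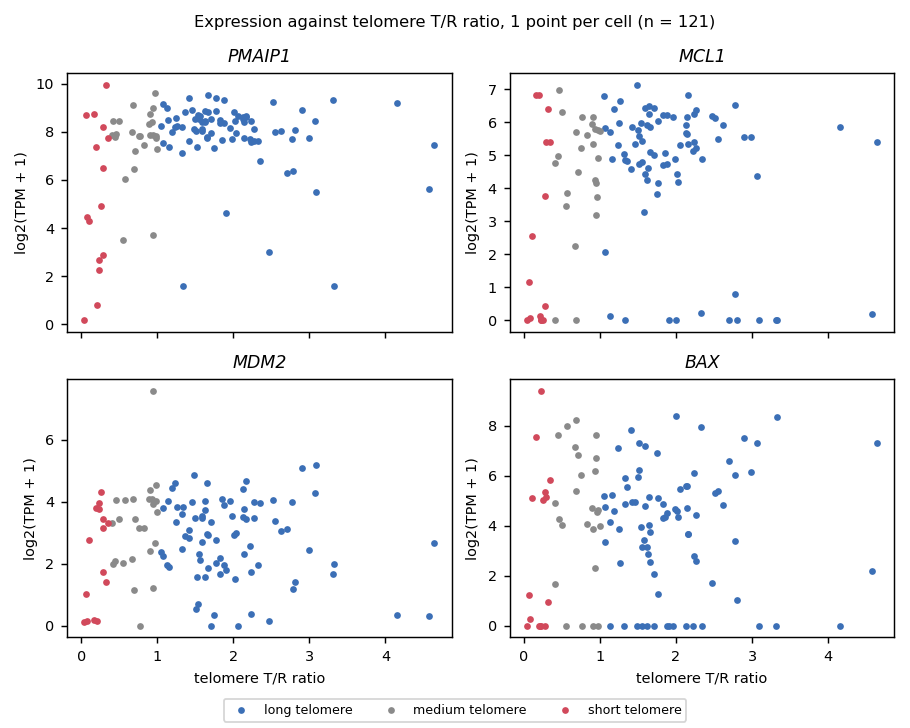
Expression of PMAIP1, MCL1, MDM2 and BAX as log2(TPM + 1) (y axes) against the telomere T/R ratio (x axes), 1 point per cell, coloured by group. Low values of PMAIP1 are most frequent at the left edge, in short telomere cells, but long telomere cells with low PMAIP1 and MCL1 lie at T/R ratios across the range.

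Several members were related more closely to the number of detected genes than to the T/R ratio. Spearman's rho with the number of detected genes was 0.53 for BCL2L1, 0.48 for MCL1, 0.44 for BCL2, 0.42 for MDM2, 0.39 for MDM4, 0.27 for BBC3, 0.23 for PMAIP1, 0.05 for CDKN1A and 0.01 for BAX, beside a median of 0.34 over the 13439 genes. BAX was the exception among the abundant members. In gene-rich cells, rho was -0.20 for BAX, 0.29 for MCL1, 0.19 for BCL2L1 and 0.04 for PMAIP1. BCL2L1 was detected in 57 of 68 such cells and in 11 of the other 53. A gene that is detected adds to the number of detected genes, so the measures are not independent.

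**Figure D4:**
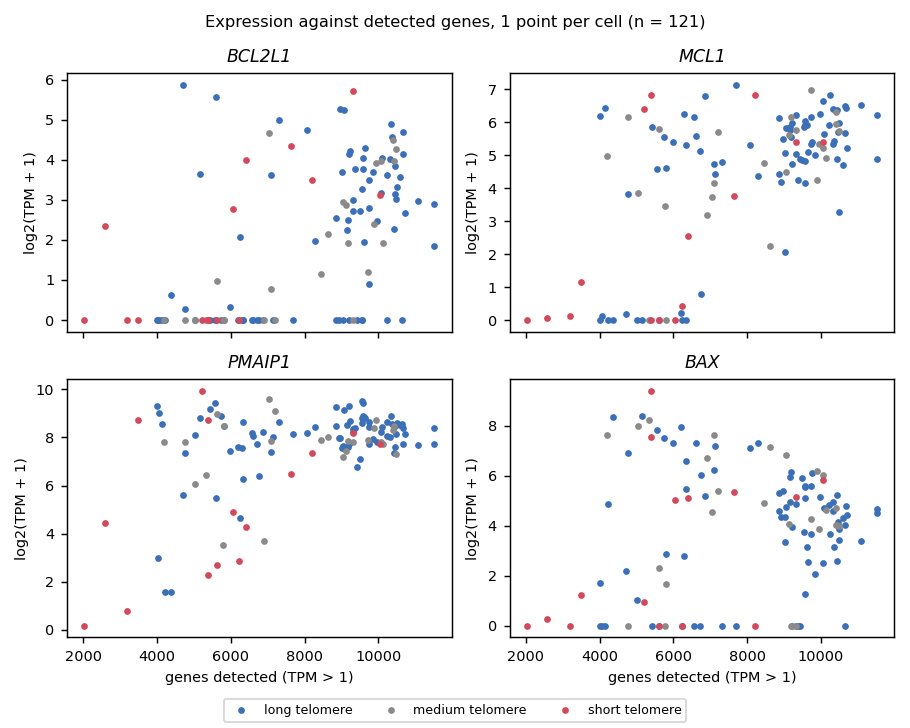
Expression of BCL2L1, MCL1, PMAIP1 and BAX as log2(TPM + 1) (y axes) against the number of genes above TPM 1 in the cell (x axes), 1 point per cell, coloured by group. Below 8000 detected genes, 42 of 53 cells had no BCL2L1 above TPM 1, whereas BAX reached its highest values there.

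The members varied largely apart from each other. Over the 36 pairs of members, Spearman's rho across 121 cells ran from -0.10 for BAX and MCL1 to 0.35 for PMAIP1 and MCL1, with a median of 0.07. In gene-rich cells no pair reached 0.2, and PMAIP1 and MCL1 had 0.04. MDM2 and MDM4 had 0.21 over all cells and -0.19 in gene-rich cells. PMAIP1 and MCL1, whose proteins bind each other, had a rho of 0.48 in the 53 gene-poor cells. By group, rho was 0.79 in 15 short, 0.19 in 81 long and 0.28 in 25 medium telomere cells. In 5 short telomere cells PMAIP1 was above 100 TPM and MCL1 above 30 TPM, in 1 only PMAIP1 was, and in 9 neither was. In the long group these numbers were 48, 25 and 7, with 1 cell in which only MCL1 was above its level. The rho in short telomere cells was noticed in these data and the difference between the groups was not tested. PMAIP1 exceeded MCL1 in 120 of 121 cells.

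The genes most like PMAIP1 over 121 cells, by Pearson's r of log2(TPM + 1) among genes whose mean TPM was 10 or more, were HAT1 (0.78), DCAF13 (0.75) and HSPA9 (0.74). In gene-rich cells the same genes had -0.18, 0.25 and -0.02, and the most alike were FAM210B (0.50), SNHG3 (0.49) and RNF10 (0.43). For MCL1 they were LTA4H (0.73), STK26 (0.71) and RPE (0.70) over all cells, and APP (0.66), SETD3 (0.56) and FSTL1 (0.54) in gene-rich cells. Over all cells, the gene most like MDM2 was GRTP1 (0.50) and the gene most like BAX was NIFK (0.44). In gene-rich cells these were MPV17L2 (0.51) and CMTM3 (0.52). No gene of those most like PMAIP1 or MCL1 over all cells was among the 3 most alike in gene-rich cells.

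Other p53 targets gave the wider view of the pathway. Of 43 listed targets 42 were present in the genes read, and 36 of these passed a mean TPM of 1. At least 1 lower in short telomere cells were 13 of the 42, and at least 1 higher were 3, beside the same 38.9% and 3.75% of all genes. These 13 and 3 are all among the 36. The median difference over the 42 was 0.39, and over the 36 it was 0.49, beside 0.70 over all genes. The most abundant were CCNG1, a cyclin G, RPS27L, a ribosomal protein paralogue, and TRIAP1, an inhibitor of apoptosis. CCNG1 had medians of 198 TPM in long, 200 TPM in medium and 21.8 TPM in short telomere cells and a long-short difference of 2.69, with SDs of 1.78 in the long and 2.83 in the short group. TRIAP1 had medians of 112, 141 and 27.0 TPM and a difference of 2.54.

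The target with the largest difference among those whose mean TPM was 10 or more was EI24, a membrane protein linked to autophagy. It had medians of 102, 90.6 and 6.53 TPM, a long-short difference of 3.61 and the higher value in the long telomere cell in 90.5% of pairs. In gene-rich cells the differences were 0.71 for EI24, 0.30 for CCNG1 and 2.74 for TRIAP1. RPS27L was detected in all 121 cells and had medians of 140, 149 and 235 TPM. Its difference was -0.29, and -0.17 in gene-rich and -0.48 in gene-poor cells. TIGAR, a regulator of glycolysis, had medians of 6.90, 6.74 and 4.99 TPM. Its difference was -0.11, and -0.36 in gene-rich and -0.75 in gene-poor cells.

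Among gene-rich cells, which rest on 3 short telomere cells, 3 targets were at least 1 lower in the short group (TRIAP1, SESN1 and RAP2B) and 5 at least 1 higher, beside 11.4% and 9.37% of all genes. The 5 were the death receptor TNFRSF10A (-2.36), SESN2 (-1.59), GADD45A (-1.51), RRM2B (-1.30) and APAF1 (-1.02), and over all cells GADD45A and RRM2B had differences of 1.60 and 1.66. Thus the direction of GADD45A and RRM2B depended on the cells compared. TNFRSF10A, SESN2 and APAF1 had differences of -0.75, -0.64 and -0.11 over all cells and -0.64, -0.73 and -0.25 in gene-poor cells. Their sign was the same in each set, but only the gene-rich differences reached 1 in size.

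Among the 3 targets at least 1 higher in the short group over all cells were, named after their values were seen, POLH, a translesion DNA polymerase, and PHLDA3, an inhibitor of AKT. POLH was detected in 61 of 81 long, 14 of 25 medium and 12 of 15 short telomere cells, with medians of 1.61, 1.06 and 3.17 TPM and highest values of 7.39, 4.30 and 95.2 TPM. Its long-short difference was -1.25. PHLDA3 was detected in 20 of 81, 5 of 25 and 7 of 15 cells, with a difference of -1.35. In gene-rich cells, which include 3 short telomere cells, the differences were -0.02 for POLH and 0.58 for PHLDA3. In gene-poor cells, which include 12 short telomere cells, they were -1.50 and -1.92. Over the whole list, 9 of the 42 targets were at least 1 lower and 3 at least 1 higher in gene-poor cells, beside 26.4% and 7.37% of all genes, with a median difference of 0.11. These 9 and 3 are all among the 36 that passed a mean TPM of 1. The median difference of the 36 was 0.20 there, beside 0.37 over all genes.

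**Figure D5:**
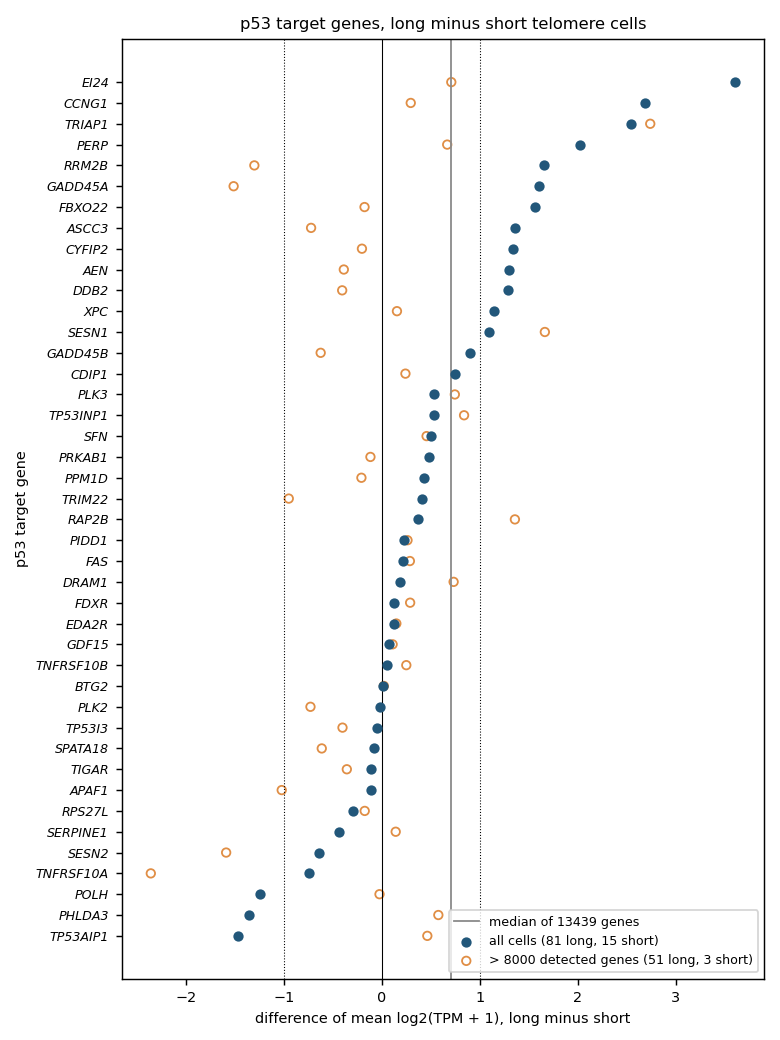
Difference of mean log2(TPM + 1), long minus short telomere cells (x axis), for each of 42 p53 targets (y axis), in all cells (filled) and in gene-rich cells (open); the grey line is the median of 13439 genes and dotted lines mark 1 and -1. In all cells, 13 targets lie at or beyond 1 and 3 at or beyond -1, whereas in gene-rich cells 3 lie at or beyond 1 and 5 at or beyond -1.

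Of 14 listed regulators of the p53 protein, 7 were at least 1 lower in short telomere cells, beside 38.9% of all genes. At least 1 higher were 0 of the 14, beside 3.75%. The 7 are among the 12 that passed a mean TPM of 1. The median difference was 0.99 over the 14 and 1.18 over the 12, beside 0.70 over all genes. RFWD2 (COP1), a second ubiquitin ligase for p53, had medians of 14.0, 9.04 and 0 TPM and a difference of 2.22, which was -0.73 in gene-rich cells. RPL5 and RPL11, ribosomal proteins that bind MDM2 under ribosomal stress, were detected in all cells, and their differences were 0.87 and 1.93, which turned to -0.30 and -0.17 in gene-rich cells. DAXX, which works with MDM2, had a difference of 0.59 over all cells, but -0.34 in gene-rich and -0.47 in gene-poor cells. In gene-rich cells, 1 of the 14 regulators was at least 1 lower, beside 11.4% of all genes, and 0 at least 1 higher, beside 9.37%. The median there was -0.27, beside 0.08 over all genes.

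In the rest of the BCL2 family, 2 of 11 genes were at least 1 lower in short telomere cells and 0 at least 1 higher, with a median difference of 0.32, beside 38.9% and 3.75% of all genes and their median of 0.70. The 2 are among the 10 that passed a mean TPM of 1, whose median difference was 0.46. In gene-rich cells, 1 was at least 1 lower and 2 at least 1 higher, beside 11.4% and 9.37%, with a median of -0.10. BID, which links death receptors to BAX, was the most abundant, with medians of 45.8, 36.9 and 42.6 TPM. BAK1, the partner of BAX in forming pores, had medians of 9.81, 5.91 and 0 TPM and a difference of 1.64. BAD had a difference of 1.21 and BIK of -0.02 (-1.57 in gene-rich cells), although BIK reached 1342 TPM in 1 short telomere cell. BCL2A1 was at 0 in every cell.

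Among 17 genes of the caspase machinery and its inhibitors, 6 were at least 1 lower in short telomere cells and 0 at least 1 higher, beside 38.9% and 3.75% of all genes, and the median difference was 0.60, beside 0.70 over all genes. The 6 are among the 16 that passed a mean TPM of 1, whose median difference was 0.63. In gene-rich cells, 2 were at least 1 lower and 3 at least 1 higher, beside 11.4% and 9.37%. In gene-poor cells, 3 were at least 1 lower and 2 at least 1 higher, beside 26.4% and 7.37%. DIABLO, which is released with cytochrome c and blocks caspase inhibitors, had medians of 63.4, 69.5 and 8.72 TPM and a difference of 2.59, which was 2.64 in gene-poor and 0.66 in gene-rich cells. AIFM1, a flavoprotein of mitochondria, had medians of 33.2, 26.9 and 10.7 TPM and a difference of 1.33, which was 0.44 in gene-poor and 1.17 in gene-rich cells. CYCS, cytochrome c, was detected in all cells, with medians of 220, 246 and 131 TPM and a difference of 0.60, which was 0.01 in gene-rich cells. The inhibitors BIRC5 and XIAP had differences of 1.29 and -0.04 (0.15 and 0.18 in gene-rich cells). DFFA, the inhibitor of the caspase-activated nuclease, had -0.46, and -0.89 in gene-rich and -0.72 in gene-poor cells.

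Markers of differentiated cells were low in all groups. Their sum over 16 genes ranged from 0 to 72.0 TPM in long, 0 to 114 TPM in medium and 0 to 121 TPM in short telomere cells. Over all cells, 0 of 16 genes differed by 1 or more between long and short. Of all genes, 38.9% were at least 1 lower and 3.75% at least 1 higher in the short group. Only 3 of the 16 passed a mean TPM of 1 and 3 were at 0 in every cell, so the count says little. The median difference of the 3 that passed was -0.52. MIXL1 had the highest mean of the 16, with medians of 0.58, 0.32 and 0.93 TPM. Its long-short difference was -0.89, and -0.94 in gene-rich and -1.36 in gene-poor cells. In gene-poor cells MIXL1 was the 1 marker of 16 at least 1 higher in the short group, beside 7.37% of all genes. In gene-rich cells 1 of the 16 was at least 1 higher, beside 9.37% of all genes. It was COL1A1 (-1.16), whose mean TPM was under 1 and which was named after its value was seen. PAX6 and SOX7 had differences of 0.30 and -0.52 over all cells. Of 8 hESC markers, 6 were at least 1 lower in short telomere cells, beside 38.9% of all genes, with a median difference of 1.81. In gene-rich cells 0 of the 8 were, beside 11.4% of all genes, and the median was 0.24, beside 0.08 over all genes. NANOG had a difference of 3.21 and TDGF1 of 3.09, POU5F1 of 0.93 and LIN28A of 0.29, and the last turned to -0.19 in gene-rich and -0.12 in gene-poor cells. The part of this in the differences of PMAIP1 and MCL1 was not tested.

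The members lie on 6 chromosomes of GRCh37, and some share exon bases with other annotated genes. Reads from bases shared on the same strand cannot be told apart. The same holds for bases shared with the other strand where the library does not mark strand. MDM2 (chr12:69201957-69239324) shares 785 exon bases with the lncRNA ENSG00000257181 and 133 with CPM, both on the other strand, and 439 with a processed pseudogene on its own strand. CDKN1A (chr6:36644237-36655114) shares 146 bases with DINOL and BCL2L1 (chr20:30252255-30311792, minus strand) 1735 bases with ABALON, both on the other strand. MCL1 (chr1:150533371-150552214, minus strand) shares 328 bases with ADAMTSL4-AS1 on its own strand and 43 with ADAMTSL4 on the other. BBC3 (chr19:47724079-47736023, minus strand) shares 80 bases with MIR3191, and BCL2 (chr18:60790579-60987361, minus strand) shares none with the genes it overlaps. PMAIP1 (chr18:57567228-57571537) and BAX (chr19:49458072-49465055) overlap no other annotated gene. MDM4 (chr1:204485507-204527248) has 1 pseudogene named after it, so its value in short telomere cell 6 carries that uncertainty.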

How the data were processed

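Single WA26 cells were profiled by scT&R-seq. According to the methods, single-end reads of 50 bp were aligned to hg19 by TopHat and counted per RefGene gene by HTSeq at default settings; the submitters' processing notes name TopHat2 and RSEM. The deposited values are TPM with 2 decimals, with 1 column per cell. Rows up to ZFR were read (25610 genes), and 1 incomplete row and genes after it were not analysed here. A cell's TPM over the rows read summed to between 979828 and 997050. Depth is unknown from TPM, so precision is given as the SD across cells or, for shares of cells, as an exact (Clopper-Pearson) 95% interval with a limit of 3 counts for a share of 0, for counting error only. T/R ratios are those the study lists for each cell.

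The members, the gene lists and the border at 8000 detected genes were chosen with earlier results of these data known. Named genes are the 9 members; from each list the 3 with the highest mean TPM and, among those whose mean TPM was 10 or more, the 2 highest and 2 lowest by long-short difference; and the 3 genes most like a member. Not all are reported, and 2 listed genes are not reported here and were left out of their lists' counts. POLH, PHLDA3, SESN1, SESN2, RAP2B, TNFRSF10A, GADD45A, RRM2B, APAF1, BCL2A1, COL1A1, GATA6, HAND1 and LUM were added after their values were seen. Differences are of mean log2(TPM + 1), which understates changes of low genes. A fold is 2 to the power of this difference. Alternatives were other pseudocounts, medians, median-ratio scaling, filters on genes and cells, rank and partial correlations, and, added after seeing the data, leaving out single cells. The calculations were tested on simulated data. Positions are from GENCODE lifted to GRCh37 and promoter windows from RefSeq. Python 3.11.15 with numpy 2.4.6, pandas 2.3.3, scipy 1.17.1 and matplotlib 3.10.9 was used.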

Additional observations from a re-analysis of the deposited data

How the results depend on the processing

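No paired analysis was possible because the results come from no test and the replicate numbers only name cells. The number of members at least 1 lower in short telomere cells (2) was 1 with a pseudocount of 10, 4 with medians of log2 values and 0 in cells with more than 8000 detected genes, where the number at least 1 higher was 1 in place of 0. The number of all genes at least 1 lower (5225) was 8064 with a pseudocount of 0.1, 1443 with 10 and 1532 in cells with more than 8000 detected genes. The number at least 1 higher (504) was 783 and 73 with pseudocounts of 0.1 and 10, 252 with medians, 1265 with median-ratio scaling, 1131 without cells under 4000 detected genes, 1259 and 990 in cells above and up to 8000, and 106 among genes whose mean TPM was 10 or more. The MCL1 difference (2.05) was reversed, at -0.45, in cells with more than 8000 detected genes. The cause of these shifts was not tested. The median differences over the members (0.37) and the p53 targets (0.39) moved by no more than 0.5 under any alternative. Of the alternatives for single members, 26 of 64 differences, beside the 1 reversal of MCL1, moved by more than 0.5, and 10 of 73 correlations by more than 0.1. The threshold of detection moved 20 of 54 shares by over 10 percentage points. TPM holds no depth, and 3 short telomere cells limit what can be said above 8000 detected genes.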
